A study of Rattus norvegicus with 6 samples.

Results

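Hormone processing genes were followed through the cells of the rat pancreas: Pcsk1 (ENSRNOG00000011107), Pcsk2 (ENSRNOG00000005438), Scg5 (ENSRNOG00000007542), Pcsk1n (ENSRNOG00000007112) and Cpe (ENSRNOG00000043387). They were chosen by name, as the convertases of the secretory granule with their known partners, and are 5 of the 32883 genes in the count matrices. Single-cell RNA sequencing covered 6 male Wistar rats, 2 in each of 3 groups. Young rats were 2 months old at baseline on normal diet, old rats were 20 months old after 18 months of normal diet, and HFHF-old rats were 20 months old after 18 months of a high-fat high-fructose diet. Islets were isolated from each pancreas by collagenase P digestion and a density gradient, and libraries were made with a 10x Genomics 3' kit. Each library is 1 rat, so a p-value between groups measures the spread between rats. Between cell classes, compared within rats, it measures how far class differences vary from rat to rat. All classes in a fit share 1 estimate of this spread, so leaving out a sum of 1 class can change the p-value of a pair of other classes. A class or group with 1 rat has no spread of its own and is given that of the others.

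Islet hormones are made as inactive precursors and are cut inside the secretory granule. Prohormone convertase 1/3, encoded by Pcsk1, and prohormone convertase 2, encoded by Pcsk2, cut after pairs of basic residues, and carboxypeptidase E, encoded by Cpe, trims these residues from the new ends. Scg5 encodes 7B2, which prohormone convertase 2 needs to become active, and Pcsk1n encodes proSAAS, an inhibitor of prohormone convertase 1/3. In beta cells the enzymes turn proinsulin into insulin and C-peptide, whereas in alpha cells prohormone convertase 2 releases glucagon from proglucagon.

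The stretches of 250 bases before the transcription start (RefSeq, build GRCr8) are shown for the detected members that the RefSeq table holds, to set the start regions of genes found in all islet classes beside their levels below. They lie at chr3:151333688-151333937 on the plus strand for Pcsk2, at chr3:121042796-121043045 on the minus strand for Scg5 and at chr16:29796457-29796706 on the plus strand for Cpe. Capitals mark matches on either strand to the GC box GGGCGG, to the box CCAAT and to TGACG, the core of the cyclic AMP element.
Pcsk2: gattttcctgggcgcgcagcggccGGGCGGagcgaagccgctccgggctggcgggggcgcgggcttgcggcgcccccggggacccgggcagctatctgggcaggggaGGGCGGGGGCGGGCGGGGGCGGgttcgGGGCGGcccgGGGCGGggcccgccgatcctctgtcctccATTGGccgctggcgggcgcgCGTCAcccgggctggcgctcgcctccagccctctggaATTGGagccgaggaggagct
Scg5: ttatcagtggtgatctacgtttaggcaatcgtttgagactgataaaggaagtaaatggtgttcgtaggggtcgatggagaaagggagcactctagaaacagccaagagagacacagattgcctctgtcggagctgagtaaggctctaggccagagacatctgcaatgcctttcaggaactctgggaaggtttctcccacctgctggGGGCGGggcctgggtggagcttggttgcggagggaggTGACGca
Cpe: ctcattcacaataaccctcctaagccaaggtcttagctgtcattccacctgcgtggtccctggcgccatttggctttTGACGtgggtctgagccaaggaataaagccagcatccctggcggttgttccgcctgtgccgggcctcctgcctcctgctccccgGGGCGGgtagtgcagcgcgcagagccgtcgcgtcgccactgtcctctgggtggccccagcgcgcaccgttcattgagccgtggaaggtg
The Pcsk2 stretch held 79.6% G and C, against a median of 51.2% over 33469 rat promoters of this length, and the GGGCGG motif 7 times, with overlapping copies. The Scg5 and Cpe stretches held 53.2% and 63.2% G and C and the GGGCGG motif 1 time each. TGACG was found 1 time in each of the 3 stretches, and 18.2% of all promoters held it, while 30.5% held GGGCGG, and 34.0% held CCAAT, found 2 times in the Pcsk2 stretch. The box TATAAA, in 12.9% of promoters, was not found in them, nor was the full cyclic AMP element TGACGTCA, in 1.59%. These are matches of letters only.

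Of 78024 barcodes, 75201 passed the quality limits, and the libraries held 77387928 to 166875258 UMIs (unique molecular identifiers, each a counted transcript). A cell was taken as an islet cell when at least 10% of its UMIs came from insulin, glucagon, pancreatic polypeptide with peptide YY, or somatostatin transcripts, and as a beta, alpha, PP or delta cell by the most abundant of these. This gave 5239 islet cells: 3257 beta, 1247 alpha, 700 PP and 35 delta cells. Another 64688 cells with under 5% hormone UMIs were taken as outside islets, and 5274 cells fell in neither set. Near the limit, 170 cells lay between 8% and 10% and 179 between 10% and 12%. The hormones defined the classes, so they are not results here, whereas the members played no part in the gate. Among markers outside the gate, 7 of 7 measured beta markers had their highest median in beta cells when beta, alpha and PP cells were compared, as had 4 of 6 alpha markers in alpha cells and 3 of 4 PP markers in PP cells. Over all 4 classes, 2 of 4 delta markers led in delta cells, while Iapp, a beta marker, also stood highest there.

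Some sums stood apart. HFHF-old replicate 2 held 2 islet cells, both beta cells, against 263 to 3007 in the other rats, so the diet group rests on 1 rat in every islet comparison. The 2457 beta cells of young replicate 2 had a median of 18.9% insulin UMIs, against 34.8% to 74.3% in the other rats with 10 or more beta cells. In 76.6% of them a second hormone reached over 1 in 4 of the insulin UMIs, their summed macrophage markers stood at 2624 UMIs per 1000000 (CPM) against 119 to 612 in the other rats, and their summed acinar enzymes at 66468 against 358 to 36453. A stricter gate, with at least 20% of UMIs from the leading hormone and at most 1 in 4 of that from another, kept 459 of these cells. Calls of members between islet classes that change without this sum are given both ways. Delta cells reached 10 cells in young replicate 1 alone (16 cells). Between library pairs, 20 to 69 barcodes were shared over the 15 pairs.

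Pcsk1, whose product cuts proinsulin in beta cells, was high in beta cells, lower in PP cells of 4 of 5 rats and close to absent from alpha cells. In beta cells it stood at 353 CPM in young replicate 1, 58.4 in young replicate 2, 357 and 177 in old replicates 1 and 2, and 395 in HFHF-old replicate 1. In alpha cells of the same rats, in the same order, the levels were 7.57, 3.26, 1.44, 6.66 and 5.30 CPM. Beta and alpha cells did not overlap, and within a rat the beta level was 17.9 to 248 times the alpha level. The alpha levels rest on 42, 19, 4, 42 and 3 UMIs in the same order, so the sizes of folds against them are uncertain. In PP cells Pcsk1 stood at 74.9, 78.7, 118, 42.9 and 97.5 CPM, above every alpha value, and 6.44 to 82.1 times the alpha level of the same rat. Beta exceeded PP in 4 of 5 rats, and the exception was young replicate 2, where the beta level was 0.741 times the PP level. Its 459 strictly gated beta cells gave 172 CPM. The 16 delta cells of young replicate 1 gave 456 CPM.

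**Figure D1:**
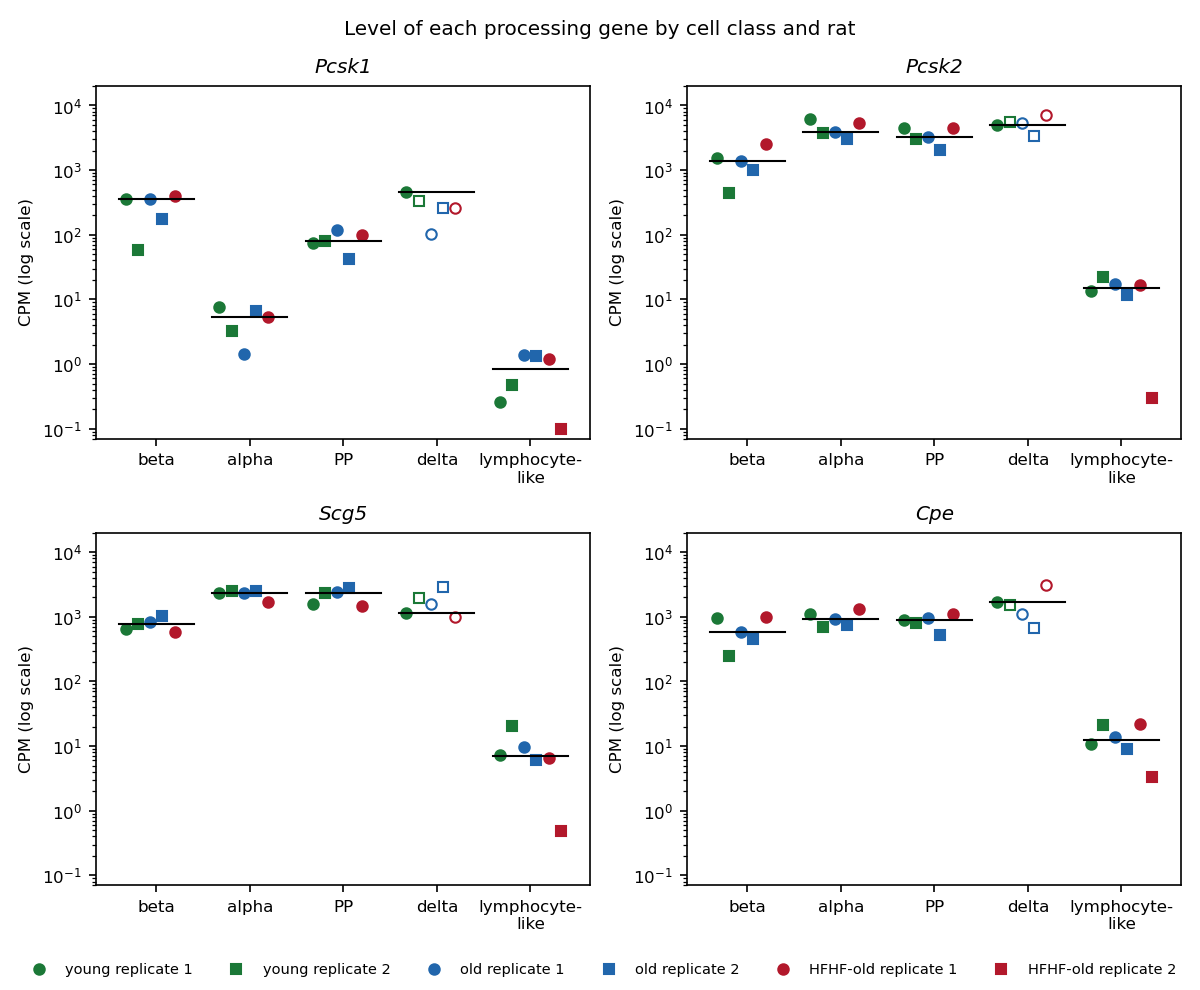
Levels of the members by cell class and rat, in CPM on a log axis. Each point is 1 rat, open points rest on fewer than 10 cells, a value of 0 is drawn at 0.1, and the black bar is the median over rats with at least 10 cells. Pcsk1 separates beta (58.4 to 395) from alpha (1.44 to 7.57), while Pcsk2, Scg5 and Cpe are present in all islet classes.

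Across islet classes, sums per rat were compared with edgeR's quasi-likelihood test with rat as a block, TMM scaling and Benjamini-Hochberg adjustment over all genes, and a gene was called at an adjusted p under 0.05 and a fold over 1.5. Pcsk1 was lower in alpha than in beta cells by a log2 fold change of -6.59 (SE 0.562, adjusted p = 1.21e-05), where 20.9% of 13901 genes were called. It was lower in PP than in beta cells at -2.65 (SE 0.461, adjusted p = 0.00131, 17.8% of genes called) and higher in PP than in alpha cells at 3.93 (SE 0.528, adjusted p = 0.000711, 6.27% called). Without the beta sum of young replicate 2 these values became -6.95, -3.12 and 3.83, all called. Delta cells of 1 rat exceeded alpha cells at 5.60 (SE 0.823, adjusted p = 0.00596, 1.45% called), with that sum assumed to vary like the others. Delta against beta (-0.98, adjusted p = 0.652, 1.94% called) and delta against PP (1.67, adjusted p = 0.501, 1.1% called) were not called for Pcsk1, although without the beta sum of young replicate 2 the latter became 1.89 (SE 0.464, adjusted p = 0.0376), a call. Without islet cells that held markers of other cells, both were called for Pcsk1, delta against beta at -1.54 (SE 0.417, adjusted p = 0.0297) and delta against PP at 1.81 (SE 0.435, adjusted p = 0.0150). Library size gave the opposite sign for Pcsk1 in delta against beta cells, 0.60 (SE 0.713, adjusted p = 0.575), not a call, so no order of these classes by Pcsk1 is given. The 4 calls made for Pcsk1 were the only calls by edgeR, with all cells and TMM scaling, of 24 tests of the 4 detected members between islet classes, and they held under all alternatives tried for them. With DESeq2, 2942 of 13901 genes were called in alpha against beta cells, and delta values rest on 1 rat there too. DESeq2 called 6 of the 24, those 4 and Pcsk2 in alpha against beta (0.73, SE 0.282, adjusted p = 0.0400) and Scg5 in delta against alpha cells (-1.18, SE 0.315, adjusted p = 0.0133).

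Pcsk2, the convertase that releases glucagon, was abundant in all islet classes. In beta cells it stood at 1567, 449, 1360, 995 and 2541 CPM in the same order of rats. In alpha cells it stood at 6207, 3789, 3851, 3081 and 5371, and in PP cells at 4516, 3018, 3298, 2055 and 4478. Alpha exceeded beta in every rat, by 2.11 to 8.43 times in CPM, and alpha exceeded PP in every rat by 1.17 to 1.499 times. Hormone transcripts took 38.9% to 74.7% of beta UMIs in these rats, and with hormone UMIs left out of the total the alpha to beta ratio became 1.22 to 8.38. Both upper limits were those of young replicate 2. In the other rats the highest ratios were 3.96 in CPM and 1.61 with hormone UMIs left out. On the TMM scale the alpha to beta log2 fold change was 0.73 (SE 0.297, adjusted p = 0.0885), not a call, whereas scaling by library size gave 1.80 (SE 0.314, adjusted p = 0.000195). Library size moved the median of all genes in this contrast by 1.01, and the share of calls that were higher in alpha cells from 46.1% to 96.2%. Strictly gated cells gave 0.67 (SE 0.175, adjusted p = 0.00924), a call, and without the beta sum of young replicate 2 the value was 0.41 (SE 0.107, adjusted p = 0.00861), under the fold limit. PP against beta went from 0.31 (SE 0.297, adjusted p = 0.489) to 1.43 (SE 0.311, adjusted p = 0.00115), a call, with library size for Pcsk2, and delta against beta from 0.07 (SE 0.554, adjusted p = 0.980) to 1.58 (SE 0.551, adjusted p = 0.0480), also a call. On that scale 8352 and 3385 of 13901 genes were called in these contrasts. Delta cells of young replicate 1 held 5008 CPM.

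Scg5, the chaperone of prohormone convertase 2, had a lower level in CPM in beta cells than in alpha and PP cells of every rat. The beta values were 654, 767, 844, 1031 and 592 CPM in the same order of rats, the alpha values 2338, 2506, 2329, 2483 and 1705, and the PP values 1591, 2334, 2423, 2809 and 1456. Neither the alpha nor the PP values overlapped the beta values, and alpha stood 2.41 to 3.57 times above beta in CPM. With hormone UMIs left out of the total the ratio was 1.20 to 3.25, and that of PP to beta 0.888 to 3.08, with PP below beta in young replicate 1. Both upper limits were those of young replicate 2, and in the other rats the highest ratios were 1.67 and 1.49. The TMM fit gave 0.51 for alpha against beta (SE 0.176, adjusted p = 0.0483), below the fold limit, which became 0.38 (SE 0.122, adjusted p = 0.0266) without the beta sum of young replicate 2, and 0.34 for PP against beta (SE 0.176, adjusted p = 0.191). Library size gave 1.57 (SE 0.224, adjusted p = 3.79e-05) for Scg5 in alpha against beta cells and 1.43 (SE 0.223, adjusted p = 8.06e-05) in PP against beta cells, both calls. On that scale 8203 and 8352 of 13901 genes were called in these contrasts, 96.2% of them higher than in beta cells. A higher Scg5 level outside beta cells on that scale is thus shared with most called genes. Alpha and PP cells had overlapping Scg5 levels (PP against alpha -0.17, SE 0.175, adjusted p = 0.706). The 16 delta cells of young replicate 1 held 1147 Scg5 CPM, and delta cells lay below alpha cells at -1.25 (SE 0.361, adjusted p = 0.134), which became -1.23 (SE 0.233, adjusted p = 0.00652), a call, without the beta sum of young replicate 2. In the same way delta against beta went from -0.74 (adjusted p = 0.384) to -0.85 (adjusted p = 0.0471) and delta against PP from -1.08 (adjusted p = 0.236) to -1.05 (adjusted p = 0.0204), both then calls. Library size gave 0.76 for Scg5 in delta against beta cells (adjusted p = 0.198), with the opposite sign and not a call.

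Cpe, the exopeptidase that acts after both convertases, was found at overlapping levels in beta, alpha and PP cells. In beta cells the levels were 970, 245, 589, 451 and 1004 CPM, in alpha cells 1112, 697, 926, 760 and 1336, and in PP cells 896, 792, 968, 519 and 1122. Alpha exceeded beta within every rat by 1.15 to 2.84 times in CPM. The direction depended on the scale. The TMM fit gave -0.41 for alpha against beta (SE 0.285, adjusted p = 0.321), library size gave 0.66 (SE 0.252, adjusted p = 0.0327), a call in the other direction, and the fit without the beta sum of young replicate 2 gave -0.69 (SE 0.169, adjusted p = 0.0054), also a call. PP against beta for Cpe went from -0.61 (SE 0.288, adjusted p = 0.156) to -0.92 (SE 0.172, adjusted p = 0.000762) without that sum, and to 0.51 (SE 0.254, adjusted p = 0.0906), the opposite sign, with library size. Without islet cells that held markers of other cells, TMM gave -0.90 (SE 0.159, adjusted p = 9.68e-05) for alpha against beta cells, a call. For PP against beta cells it gave -1.03 (SE 0.161, adjusted p = 2.45e-05), also a call. With hormone UMIs left out of the total, the alpha to beta ratio was 2.82 in young replicate 2 and 0.386 to 0.895 in the other rats. As library size gave the opposite sign, no order of alpha, beta and PP cells by Cpe is given. The 16 delta cells of young replicate 1 held 1672 CPM, above every beta, alpha and PP value, but on the TMM scale delta against beta gave -0.44 (SE 0.542, adjusted p = 0.760), not a call.

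**Figure D2:**
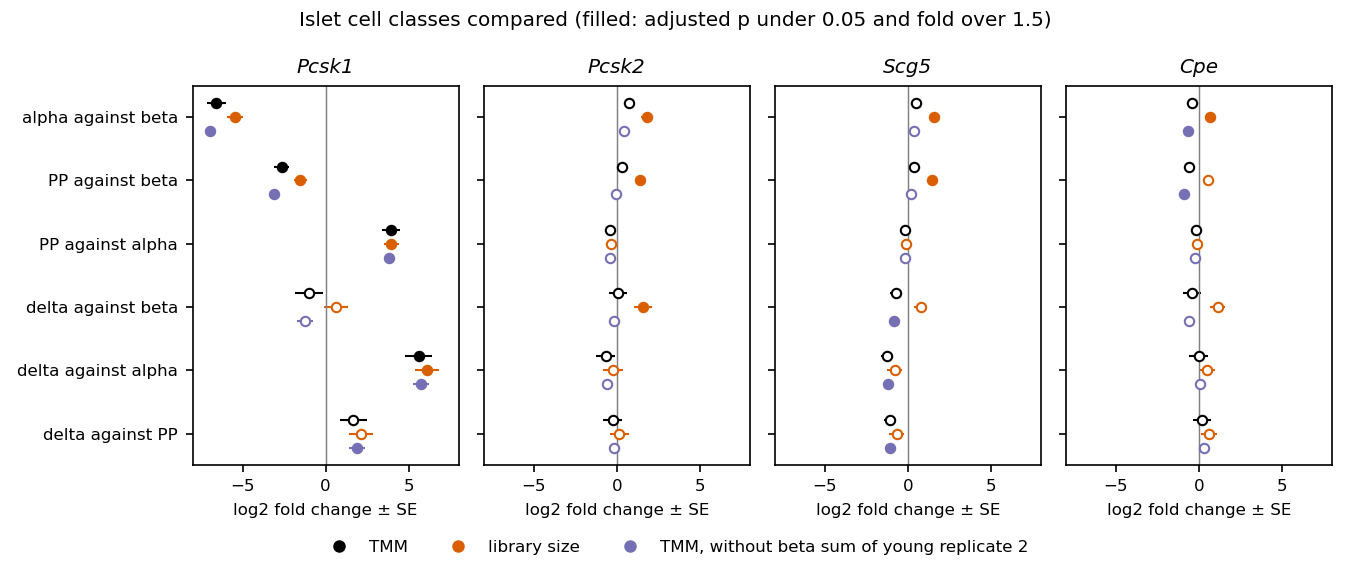
Log2 fold changes of the detected members between islet classes with TMM scaling, with library size, and with TMM but without the beta sum of young replicate 2 (colours). Points are fitted values, bars are standard errors, and filled points are calls. Pcsk1 lies far from 0 for alpha against beta (-6.59) and PP against alpha (3.93), while Cpe in alpha against beta cells is called above 0 with library size (0.66) and below 0 without that sum (-0.69).

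Pcsk1n, the inhibitor of prohormone convertase 1/3, had few counted UMIs. All barcodes of the 6 libraries held 39 Pcsk1n UMIs (8, 10, 2, 17, 2 and 0 per rat), against 20853 of Pcsk1, 278618 of Pcsk2, 168251 of Scg5 and 93524 of Cpe. Of these, 30 lay in the 5239 islet cells, 7 in beta, 9 in alpha, 13 in PP and 1 in delta cells. Another 3 lay in the 64688 cells outside islets, and the 17413 lymphocyte-like cells held 0. The counts are too few for a fold between classes or groups. Whether the annotation used for counting takes up all reads of this gene, its 3′ end included, was not tested, so the low count does not show that the transcript is scarce. The gene was tested only for a difference in group effect between islet classes, and passed the filter on low counts in no other fit.

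The ratio of the convertases was highest in beta, intermediate in PP and lowest in alpha cells of every rat with 10 or more cells of each. Beta cells held 225, 130, 262, 178 and 156 Pcsk1 UMIs per 1000 Pcsk2 UMIs in the 5 rats, in the order given for Pcsk1. Alpha cells held 1.22, 0.860, 0.373, 2.16 and 0.987, and PP cells 16.6, 26.1, 35.8, 20.9 and 21.8. These 3 classes did not overlap, young replicate 2 included. The ratio does not depend on the scaling of the libraries, since both genes are counted in the same cells. Delta cells gave 91.0 in young replicate 1, and 19.7 to 76.7 in the other rats from 2 to 7 cells each. The 2 beta cells of HFHF-old replicate 2 held 30 Pcsk1 and 113 Pcsk2 UMIs.

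The share of cells with a UMI was compared after each cell was thinned to 2000 UMIs, because median depths differed (8131 to 43290.5 UMIs per rat in beta cells, 13294.5 to 27196 in alpha cells, 3337 to 8741 in lymphocyte-like cells). Shallower cells were left out, 2 of the beta cells of HFHF-old replicate 1 and 2 of the alpha cells of old replicate 2 among them, and in smooth muscle-like cells of old replicate 2 73 of 324 cells remained. Pcsk1 was then seen in 2.63% to 53.0% of beta cells, with the lowest value in young replicate 2, and in 0.214% to 1.47% of alpha cells. Lymphocyte-like cells, which have no granules of peptide hormones and served as the measure of free RNA, gave 0% to 0.262%. PP cells gave 7.95% to 15.8% and the delta cells of young replicate 1 51.7%. Without thinning, the Pcsk1 shares were 9.40% to 98.9% of beta, 2.91% to 7.05% of alpha and 0% to 1.11% of lymphocyte-like cells. Thinned Pcsk2 shares were 50.6% to 98.1% of beta cells, 94.1% to 99.98% of alpha cells and 0.0470% to 4.97% of lymphocyte-like cells. For Scg5 they were 66.2% to 81.7% of beta and 94.1% to 98.9% of alpha cells, and for Cpe 31.7% to 85.5% and 67.1% to 91.7%. Lymphocyte-like cells gave 0.0664% to 4.64% for Scg5 and 0.550% to 4.21% for Cpe.

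**Figure D3:**
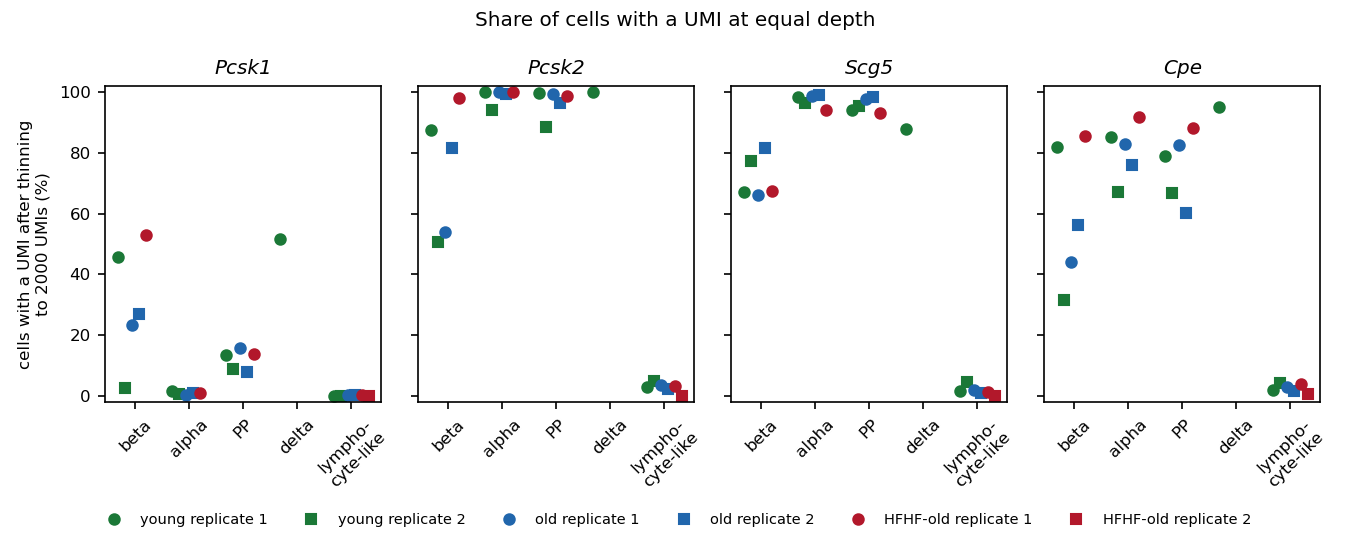
Share of cells with at least 1 UMI of each member after thinning to 2000 UMIs per cell, by class and rat. Each point is 1 rat with at least 10 cells of the class. Pcsk1 is seen in 2.63% to 53.0% of beta cells and in at most 1.47% of alpha cells, and lymphocyte-like cells show at most 4.97% for every member shown.

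Pcsk1 in alpha cells was also set beside insulin, because insulin UMIs were counted in every class shown. Beta cells held 472, 187, 528, 252 and 686 Pcsk1 UMIs per 1000000 insulin UMIs in the 5 rats. Alpha cells held 5055, 516, 935, 882 and 3024, from 42, 19, 4, 42 and 3 Pcsk1 UMIs. Insulin UMIs named the beta class and fill its divisor, so the beta and alpha ratios were not ranked. Lymphocyte-like cells, the measure of free RNA, held 261, 185, 681, 568 and 390, from 3, 3, 17, 16 and 10 Pcsk1 UMIs. PP cells held 60447, 7966, 101758, 5370 and 46563. Whether free RNA carried part of the low alpha signal was not tested.

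Age and diet were compared within each islet class, with 2 rats in the young and old groups and 1 in the HFHF-old group, whose spread was assumed to be that of the others. None of the 36 tests of members was called by edgeR's quasi-likelihood test with Benjamini-Hochberg adjustment, none had an unadjusted p under 0.05, and DESeq2 called 0. In beta cells 0.0% of 12748 genes were called in each of the 3 comparisons, and the share was 0.0236%, 0.0394% and 0.0866% in alpha cells and 0.0185%, 0.0185% and 0.0648% in PP cells, for old against young, HFHF-old against old and HFHF-old against young. The lowest adjusted p of a member was 0.575. Old beta cells differed from young ones by 0.46 for Pcsk1 (SE 1.09, adjusted p = 1.00), 0.34 for Pcsk2 (SE 1.10), 0.66 for Scg5 (SE 0.797) and -0.12 for Cpe (SE 1.02). Of the young rats, replicate 1 lay within the 177 to 357 CPM of the old rats for Pcsk1 and replicate 2 below them. Without the beta sum of young replicate 2 the Pcsk1 value was -0.41 (SE 0.580, adjusted p = 0.872), and without young replicate 1 it was 2.69 (SE 0.675, adjusted p = 0.0415), the only call among these 36 tests in any alternative. The sign of the age difference of Pcsk1 in beta cells thus depended on which young sum was used.

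Among the 4 detected members, Scg5 had the lowest diet values in all 3 classes. HFHF-old against old gave -1.49 in beta (SE 1.04, adjusted p = 1.00), -1.22 in alpha (SE 0.714, adjusted p = 0.575) and -1.34 in PP cells (SE 0.828, adjusted p = 0.772). In CPM the HFHF-old rat was below both old rats in each class, with 592 against 844 and 1031 in beta cells. Young replicate 1 lay near it in beta (654) and PP cells (1591 against 1456), though not in alpha cells (2338 against 1705). None of these values was called, and all 3 come from the same rat and library. Of its beta, alpha and PP cells, 93.8%, 89.3% and 83.6% held UMIs of 3 or more markers of another class, against 73.4% and 32.1%, 25.2% and 15.6%, and 53.7% and 31.9% in old replicates 1 and 2. The summed macrophage markers of the HFHF-old rat were 467, 746 and 1060 CPM in these classes, against 612 and 119, 264 and 202, and 686 and 347 in the old rats. Without islet cells that held markers of other cells, beta cells of 5 rats held 607 to 1031 Scg5 CPM. With all cells the range was 592 to 1031. In alpha and PP cells, where 4 rats then kept 10 or more cells, the part of these markers in the Scg5 values was not tested. With the replicate number as a block, the Scg5 values were -1.48, -0.99 and -0.86. Per 1000 Pcsk2 UMIs, pooled islet cells held 373, 623 and 260 Scg5 UMIs in replicates 1 of young, old and HFHF-old rats. Replicates 2 held 963 and 1006 in young and old rats, and 363 in the 2 HFHF-old cells. The part of the replicate number was not tested. For Pcsk1 HFHF-old against old gave -0.26, -0.50 and -0.04, for Pcsk2 0.29, -0.08 and 0.33, and for Cpe 0.13, -0.05 and 0.21. The Pcsk1 alpha value rests on 3 UMIs in the HFHF-old rat and was -6.08 in strictly gated cells. The difference of a group effect between alpha and beta or between PP and beta cells was called in 0 of 30 tests of members, with 0 at an unadjusted p under 0.05 and 0 by DESeq2 (0.0% of 13709 genes called).

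**Figure D4:**
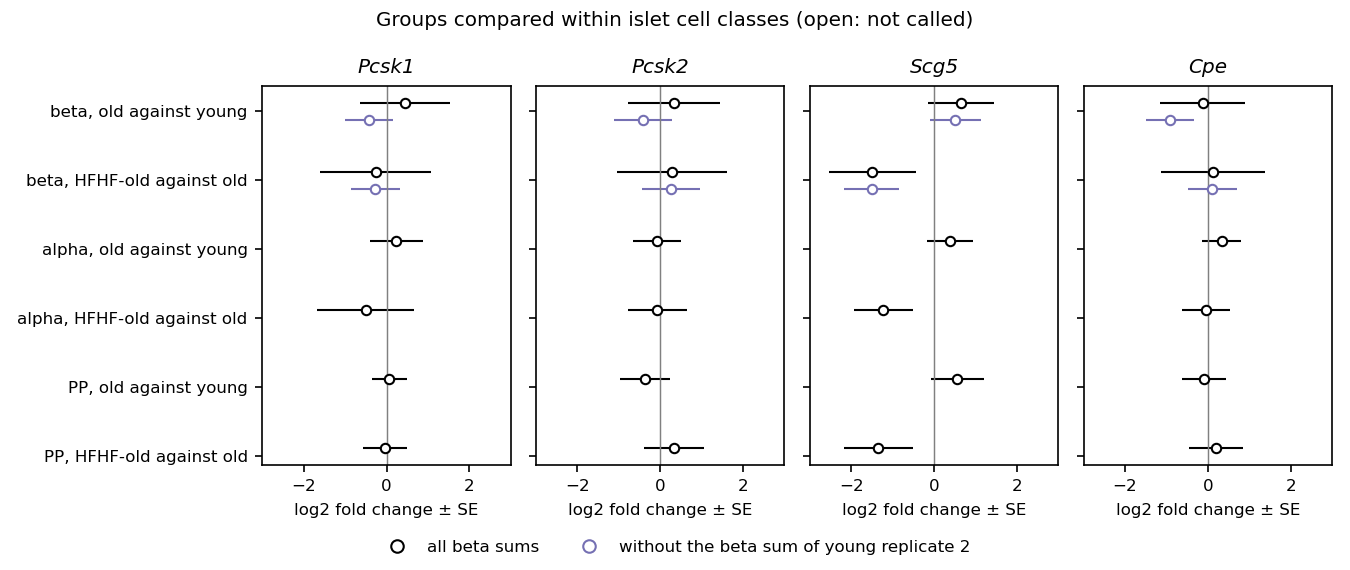
Log2 fold changes of the detected members between groups within beta, alpha and PP cells, with all sums (black) and without the beta sum of young replicate 2 (violet). Points are edgeR estimates, bars are standard errors, and HFHF-old is 1 rat. No point is a call, and Scg5 in HFHF-old against old rats lies at -1.49, -1.22 and -1.34.

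Outside islets, the cells were named from marker lists as acinar-like, lymphocyte-like, B-like, macrophage-like, fibroblast-like, endothelial-like, smooth muscle-like, ductal-like, mesothelial-like or mast-like. Every detected member was higher in islet cells than in each of these 10 classes (40 of 40 tests called, where of 13890 genes 44.4% were called in either direction against acinar-like, 63.8% against lymphocyte-like, 55.4% against B-like, 55.7% against macrophage-like, 50.9% against fibroblast-like, 53.2% against endothelial-like, 38.9% against smooth muscle-like, 41.7% against ductal-like, 35.4% against mesothelial-like and 28.6% against mast-like cells). The smallest of these log2 fold changes was that of Cpe against smooth muscle-like cells, at 2.66 (SE 0.476, adjusted p = 8.09e-06). Against lymphocyte-like cells the values were 8.64 for Pcsk1, 8.29 for Pcsk2, 8.44 for Scg5 and 6.69 for Cpe. Mast-like cells held 0 UMIs of Scg5 and 0 of Pcsk1 in every rat, so 2 of the 40 calls are comparisons with a count of 0, and no fold is given for them. Pcsk1 in B-like, smooth muscle-like and mesothelial-like cells and Pcsk2 in mast-like cells reached at most 1 UMI in any rat. The sizes of those folds are not read.

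Cpe was higher in several stromal classes than in lymphocyte-like cells. Smooth muscle-like cells held 207, 332, 188, 184 and 368 CPM in the 5 rats with islet cells of more than 1 class, where lymphocyte-like cells of these rats held 10.9, 21.3, 13.8, 8.97 and 22.2. Mesothelial-like cells, which line the organ surface, held 70.2 to 161 in 4 rats, and endothelial-like cells 24.3 to 124 in 6 rats. None of the 3 classes overlapped the lymphocyte-like range of 3.38 to 22.2, and the lowest endothelial-like value lay closest to it. Against lymphocyte-like cells, Cpe was higher by a log2 fold change of 4.04 in smooth muscle-like cells (SE 0.474, adjusted p = 3.65e-10, 51.7% of genes called), 3.15 in mesothelial-like cells (SE 0.519, adjusted p = 1.32e-06, 44.8% called) and 2.33 in endothelial-like cells (SE 0.448, adjusted p = 1.86e-05, 46.1% called). These calls were kept under every alternative tried. In the same fit Ins1 stood at 0.04, -0.79 and 0.02, and the thinned share of cells with a Cpe UMI was 26.3% to 46.3% in smooth muscle-like against 0.550% to 4.21% in lymphocyte-like cells (17.9% to 69.5% and 1.56% to 12.1% without thinning, at median depths of 889.5 to 6400.5 and 3337 to 8741 UMIs).

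**Figure D5:**
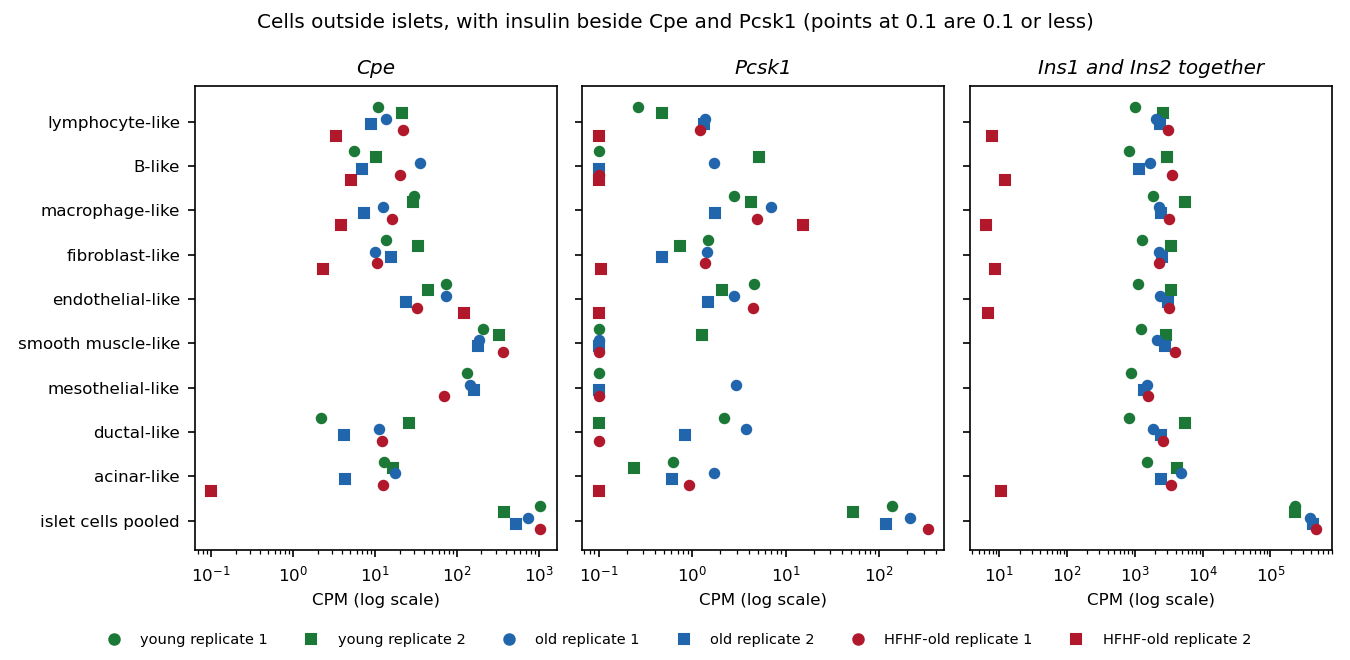
Levels of Cpe and Pcsk1 in cells outside islets, with Ins1 and Ins2 together, in CPM on log axes. Each point is 1 rat with at least 10 cells of the class, coloured by group, and values of 0.1 or less are drawn at 0.1. Cpe is highest outside islets in smooth muscle-like cells (184 to 368), where insulin lies at the level of the other classes.

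Pcsk1 was low but above the lymphocyte-like level in macrophage-like cells. They held 2.78, 4.21, 6.97, 1.73, 4.88 and 15.4 CPM in the 6 rats, from 93, 54, 161, 25, 291 and 12 UMIs, while lymphocyte-like cells held 0.263, 0.477, 1.38, 1.35, 1.21 and 0. The macrophage-like value was higher in 6 of 6 rats, with a log2 fold change of 2.74 (SE 0.483, adjusted p = 4.52e-06, 48.8% of genes called), and the call held in all 14 alternatives. The corresponding value was 0.43 for Ins1 (adjusted p = 0.136), 0.69 for Scg5 (adjusted p = 0.118) and 0.90 for Pcsk2 (SE 0.299, adjusted p = 0.00904), a call that was lost in 3 of 14 alternatives. Per 1000000 insulin UMIs, macrophage-like cells held 1518, 766, 3024, 709 and 1517 Pcsk1 UMIs in the 5 rats with 10 or more islet cells. Lymphocyte-like cells of these rats held 261, 185, 681, 568 and 390. Endothelial-like cells held 4096, 609, 1182, 473 and 1390, and unnamed cells outside islets 3751, 1373, 7557, 1151 and 1267. A high ratio was thus not particular to macrophage-like cells. In HFHF-old replicate 2 the 87 macrophage-like cells held 12 Pcsk1 UMIs beside 5 insulin UMIs.

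Other calls outside islets were less firm. In acinar-like cells all 4 members were called above lymphocyte-like cells on the TMM scale (Pcsk1 2.23, Scg5 2.99, Pcsk2 2.79, Cpe 2.05, 59.5% of genes called), with Ins1 at 2.76 and Gcg at 2.96 in the same fit. Library size gave 0.03, 0.76, 0.57 and -0.17, none called, and moved the median of all genes by -2.15 there. Their levels in acinar-like cells were 0 to 33.0 CPM for Pcsk2, within or near the 0.298 to 22.3 of lymphocyte-like cells. Pcsk1 in endothelial-like cells was called at 1.93 (SE 0.678, adjusted p = 0.0144) from 0 to 13 UMIs per rat, and at 1.25 it was not called without young replicate 1. Scg5 in mesothelial-like cells was called at 2.08 (SE 0.593, adjusted p = 0.00317) from 1 to 12 UMIs per rat in 4 rats, and not without young replicate 1 (1.81) or without rat as a block (1.77). In all, 11 of 36 tests of members against lymphocyte-like cells were called, with none in B-like (24.2% of genes called), fibroblast-like (55.9%), ductal-like (52.3%) or mast-like cells (17.8%). Fibroblast-like cells, present in all 6 rats, were used to compare groups with 2 rats each. None of 12 tests was called (at most 0.00719% of 13902 genes), 1 had an unadjusted p under 0.05, and DESeq2 called 1, where it called 222 of 13902 genes. That value was Scg5 in HFHF-old against young rats, in edgeR at -2.96 (SE 0.941, adjusted p = 0.480), and the levels were 9.86 and 24.95 CPM in young, 8.35 and 6.28 in old, and 3.50 and 0.214 in HFHF-old rats. The lowest value belonged to the rat with 2 islet cells, whose lymphocyte-like cells also held the least Scg5, at 0.486.

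The rest of the processing pathway was read from lists of other convertases, trimming and modifying enzymes, granule proteins, the granule proton pump, folding factors of the endoplasmic reticulum and hormone precursors. For alpha against beta cells, 6 of 10 folding genes were lower and 0 higher on the TMM scale, where 1568 of 13901 genes were lower and 1342 higher, with a list median of -0.70 against -0.07 over all genes. They were Ero1b at -4.65 (SE 0.413, adjusted p = 1.52e-05), the oxidase that renews disulfide bonds, and Dnajc3 (-1.40), P4hb (-1.26), Pdia6 (-0.94), Canx (-0.71) and Hspa5 (-0.70), chaperones and disulfide isomerases. The scale matters here: the medians over rats in CPM were higher in alpha than in beta cells for Hspa5 (321 against 217), Pdia6 (237 against 201) and Canx (173 against 135), and lower for Ero1b (12.9 against 229), P4hb (58.0 against 73.7) and Dnajc3 (41.0 against 45.7). PP against beta called 2 of 10 folding genes lower, Ero1b at -4.03 and Dnajc3 at -0.99, where 1333 of 13901 genes were lower and 1141 higher. Of 11 trimming and modifying enzymes tested, 2 were higher and 2 lower in alpha cells, with Bace2, an aspartic protease, at -5.89 (SE 0.613, adjusted p = 3.87e-05), and 4 were higher and 2 lower in PP than in beta cells. Qpct, which forms pyroglutamate at peptide ends, was higher in PP than in beta cells at 3.54 (SE 0.401, adjusted p = 7.11e-05) and than in alpha cells at 3.20 (SE 0.395, adjusted p = 0.000403). Pam, which amidates peptide ends, was higher in PP cells at 1.16 against beta and 0.96 against alpha cells.

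None of 6 other convertases was called between alpha and beta or between PP and beta cells, and Furin alone was higher in PP than in alpha cells (0.64, SE 0.129, adjusted p = 0.00888). Of 11 granule proteins tested, 1 was higher in alpha than in beta cells, a share near that of all genes (1342 of 13901), and 4 in PP than in beta cells (1141 of 13901), with Chgb, encoding chromogranin B, at 1.38 and 2.99. Of 10 precursor genes tested, 1 was higher and 3 lower in alpha than in beta cells, and 2 were higher and 5 lower in PP than in beta cells. In this list, the hormone genes that defined the classes lead by construction, with Ins2 at -9.22, Ins1 at -8.99 and Gcg at 5.50 in alpha against beta cells, and Ppy at 6.40 in PP against beta cells. Iapp, which encodes the precursor of amylin, was lower in alpha (-3.59) and PP cells (-3.68). Of the 7 proton pump genes, 1 was lower in each of these contrasts, near the share of all genes (1568 and 1333 of 13901). All these values are on the TMM scale with the beta sum of young replicate 2 included, and listed genes were not read without it. Library size raises the median of all genes by 1.01 in alpha against beta and by 1.04 in PP against beta cells. In PP against alpha cells, where 413 of 13901 genes were higher and 459 lower, the lists held 3 granule genes, 2 trimming and modifying enzymes, 2 precursors, 1 other convertase and 1 folding gene that were higher, and 1 precursor that was lower. These precursors were Ppy, Pyy and Gcg, which defined the classes, so their calls are fixed by construction. For the delta sum of 1 rat, 1 granule gene was higher and 1 lower against beta and against alpha cells, 1 was lower against PP cells, 1 folding gene was lower against beta cells, and 2, 3 and 3 precursors were higher against beta, alpha and PP cells, where 186, 127 and 105 genes were higher and 84, 75 and 48 lower. Sst, which defined the delta class, was 1 of these precursors in each contrast. Among the genes called for the delta sum, Chgb stood at 3.64 against beta cells (SE 0.398, adjusted p = 0.000916), and Nucb2, encoding the precursor of nesfatin-1, at 2.17 against PP cells (SE 0.341, adjusted p = 0.00918). The lower granule gene was Rab27a in each case, with 0 UMIs in the delta sum, so no fold is given. Between groups within islet classes, 0 of 477 tests of listed genes were called.

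Genes whose levels ran most like those of a member were ranked by Pearson's r of log2(CPM + 10) over 16 sums of class and rat, among 2054 genes with a mean of at least 50 CPM. The sums share libraries and hormone load, so r is a description. For Pcsk1 the highest values were those of Hadh (0.82), Prlr (0.77) and Rpn2 (0.77). For Pcsk2 they were Ica1 (0.99), Pex5l (0.98) and Rab3c (0.97), for Scg5 Mageh1 (0.95), LOC108348172 (0.94) and Tmem27 (0.93), and for Cpe Enah (0.95), Map2 (0.94) and Cacna1a (0.94). For Pcsk1n, with 30 UMIs in islet cells, the 3 highest were AABR07021871.1 (0.57), LOC102555453 (0.54) and LOC108348142 (0.52), from counts too sparse to read. Among the members, Pcsk2 and Cpe ran together at 0.87, and Pcsk1 and Scg5 in opposite directions at -0.74.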

How the data were processed

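UMI counts of 6 pancreas libraries, 1 per rat, were analysed. The authors ran Cell Ranger and deposited filtered matrices of integer UMI counts per gene and barcode, with headers naming version 5.0.0 and processing notes naming the build Rnor 6.0. Barcodes with under 200 genes, over 25% mitochondrial UMIs or a gene number in the top 1% were left out. Islet cells needed 1000 genes and 10% of UMIs from 1 hormone group. Cells under 5% were placed outside islets and named where at least 3 of a class's markers had a UMI and their share led, or from 20% of UMIs in acinar enzymes. No doublet caller was run, and islet cells with markers of other cells were left out only in an alternative. Free RNA was not subtracted.

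UMIs were summed per rat and class from 10 cells upwards and tested with edgeR 4.0.16 in R 4.3.3 (quasi-likelihood test, filterByExpr, TMM, adjusted over all genes tested). DESeq2 1.42.0 was an alternative. SE is the log2 fold change divided by the root of F. Class comparisons within rats had rat as a block. The scripts were tested on simulated counts. Shares were thinned by the hypergeometric expectation. Ages and feeding times came from the labels. Python 3.11.15 with numpy 2.4.6, pandas 2.3.3 and scipy 1.17.1 was used.

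Members and lists were chosen with earlier results of these data known. All 5 members are given, with counts for each list, naming at most 4 called genes a comparison, those with the largest change (other named genes were chosen after their values were seen) and the 3 genes most like each member in level. Replicate numbers of the labels were not taken as a pairing of the rats. Deviations of young and old rats with the same number correlated at -0.27 in beta, 0.22 in alpha and 0.28 in PP cells. These values do not decide whether rats with the same number shared a batch. RefSeq promoter entries matched 4 of 5 members, and Pcsk1 was not among them.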

Additional observations from a re-analysis of the deposited data

How the results depend on the processing

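Of 2922 values recomputed under alternatives, 2853 kept their side of the threshold without a reversed call (250 of them changed sign, uncalled both ways), 54 newly passed it, 12 no longer passed it and 3 reversed. Calls of members between islet classes numbered 4, and 10 with library size and 11 without islet cells that held markers of other cells. They numbered 10 without the beta sum of young replicate 2 (an alternative chosen after seeing the data, as were the strictly gated cells). With a rat left out there were 3 to 9, the highest without young replicate 2. Of all 13901 genes, library size moved the calls in alpha against beta cells from 2910 to 8203. In PP against beta cells it moved them from 2474 to 8352. Shares over all genes are not given for the other alternatives. No change in the number of member calls, here or below, is therefore read as a trait of these genes. Calls outside islets against lymphocyte-like cells numbered 11, and 7 with library size and 8 to 12 with a rat left out. All 40 calls of pooled islet cells against outside classes were kept in number in every leave-out fit (40 to 40). Calls of members between groups in islet classes numbered 0, and 0 to 1 with a rat left out, the 1 without young replicate 1. In fibroblast-like cells there were 0, against 1 with DESeq2, 4 with no filter on low counts and 0 to 2 with a rat left out, the 2 without HFHF-old replicate 1. Differences of group effects between classes numbered 0, and 1 without cells holding other markers and 0 to 9 with a rat left out. The 9 came without young replicate 1, where young beta cells are those of young replicate 2 alone.

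Cpe in alpha against beta cells reversed to 0.66 with library size, and its old against young effect in alpha minus beta cells lay at -1.10 to 1.21 with a rat or the beta sum of young replicate 2 left out, reversed without young replicate 1. In acinar-like against lymphocyte-like cells library size gave 0.030 for Pcsk1, 0.76 for Scg5, 0.57 for Pcsk2 and -0.17 for Cpe, while with rats left out Pcsk1 ran from 2.08 to 2.90, not called at 2.26 without old replicate 1 and 2.55 without HFHF-old replicate 1. Pcsk2 in macrophage-like cells was not called at 0.66 with an outside limit of 2%, at 0.96 with no replicate block or at 0.66 without young replicate 1, in a leave-out range of 0.66 to 1.06. Pcsk1 in endothelial-like cells ranged from 1.25 (without young replicate 1, not called) to 2.65. Scg5 in mesothelial-like cells gave 1.77 with no replicate block and 1.81 to 2.41 with rats left out, not called at 1.81 without young replicate 1. The cause was not tested.

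With the replicate number as a replicate block, 0 members were called between groups in islet classes and 0 in fibroblast-like cells. For Pcsk2 in old against young rats, this block moved the SE from 0.579 to 0.202 in alpha cells. In PP cells it moved from 0.604 to 0.310, and in beta cells from 1.10 to 1.15. With no replicate block, 4 calls between islet classes, 9 against lymphocyte-like cells, 40 of pooled islet cells and 0 differences of effects were made. Small numbers limit what can be said of Pcsk1n (39 UMIs) and delta cells (35 cells), and intervals of group differences rest on 2 rats a group, with 1 HFHF-old rat in islet classes.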
